A study of Mus musculus with 26 samples.

Results

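The 48 genes described here encode the subunits of the ionotropic and metabotropic receptors for glutamate, GABA and glycine. They were chosen by gene symbol from a table of 14580 genes, with no use of their levels. The set holds 25 glutamate receptor genes, 18 GABA receptor genes and 5 glycine receptor genes. Of the 48 genes, 43 were listed at P5, 44 in the adult Opn4-GFP line and 45 in the adult Opn4-Cre/GFP line, and 40 were listed in all 3. A gene absent from a listing had been removed by the study's filter on low counts and was never read as 0.

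RNA was sequenced from pools of retinal ganglion cells of melanopsin reporter mice, in 26 libraries. Retinas were dissociated, ganglion cells were enriched with Thy1 magnetic beads, and GFP-positive cells (intrinsically photosensitive ganglion cells, ipRGCs) were sorted apart from GFP-negative cells (conventional ganglion cells, cRGCs). In Opn4-GFP+/- mice, labelled BL6, 3 ipRGC and 3 cRGC pools were taken at P4 to P6 (called P5), and 6 and 6 pools at P27 to P33 (called adult). In Opn4-Cre+/-;Z/EG+/- mice, labelled as mixed and called Opn4-Cre/GFP, 4 and 4 pools were taken at P27 to P33. The labels thus give the lines different backgrounds, whereas the study's text calls the background of both mixed. Opn4-GFP is a bacterial artificial chromosome transgene that marks M1 to M3 ipRGCs and only some of them, while the Cre line marks M1 to M6 cells. Unlabelled ipRGCs therefore remain among the cRGCs, and each library is a pool of several mice, so the spread below is between pools and not between animals.

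Ionotropic glutamate receptors are cation channels built of 4 subunits and carry fast excitation from bipolar cells to ganglion cells. AMPA receptors are made of Gria subunits, kainate receptors of Grik subunits and NMDA receptors of the obligatory Grin1 with Grin2 or Grin3 subunits. The metabotropic receptors (Grm) signal through G proteins. GABA-A and glycine receptors are chloride channels that carry inhibition from amacrine cells, and GABA-B receptors are G protein-coupled pairs of Gabbr1 and Gabbr2.

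Values of single genes are CPM, that is reads per 1000000 reads of the scaled library, as deposited. Reads over listed genes ranged from 3927386 to 44871619 per library. Opn4, the melanopsin gene that the reporters mark, was at 1986 to 3360 CPM in P5 ipRGC pools and 41.2 to 55.7 CPM in P5 cRGC pools, and it was called higher in ipRGCs in all 3 comparisons. In 3 adult pools (Opn4-GFP pools 2 and 4, Opn4-Cre/GFP pool 4) the 6 libraries had 1169 to 2530 listed genes at 0 reads, against at most 819 in any other library. Between 0 and 9 receptor genes were at 0 in an adult library and at most 1 at P5. Among receptor genes with a mean of at least 5 CPM, the median coefficient of variation between pools was 0.215 for ipRGCs and 0.196 for cRGCs at P5, 0.818 and 0.880 for those of the adult Opn4-GFP line, and 0.495 and 0.768 for those of the Cre line. All listed genes behaved alike (0.228, 0.250, 0.806, 0.936, 0.474 and 0.672 in the same order). The standard errors of adult differences were accordingly wider than those at P5.

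The repertoire of ipRGCs was led by a few subunits. Per kb of exon, the highest level among the receptor genes of adult Opn4-GFP ipRGCs was that of Gabbr2, the G protein-coupling subunit of the GABA-B receptor, at 113 ± 32.5 reads per kb in 1000000 reads over listed genes (SD, n = 6 pools). It was followed by the AMPA subunits Gria2 at 66.5 ± 23.9 and Gria4 at 57.9 ± 17.2 and, lower in the order, by the kainate subunit Grik5 at 55.0 ± 40.9. These 4 values do not separate beyond their spread except that Gabbr2 was above the rest on average, and its lowest pool (59.9) lay inside the range of Gria2. The ipRGCs from P5 held Gabbr2 at 119.6 ± 19.0 (n = 3) and those of the adult Cre line at 134.7 ± 38.3 (n = 4). Gria2 was at 43.7 ± 9.12 and 58.3 ± 25.5 in the same pools.

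Leading genes of other classes in adult Opn4-GFP ipRGCs are given on the same per-kb scale. Grin1, which every NMDA receptor needs, led its class at 31.9 ± 9.09, and Gabra3 led the GABA-A alpha subunits at 49.5 ± 28.5. Glrb, the beta subunit that anchors glycine receptors to gephyrin, was at 36.6 ± 25.9. Lower leaders were Grm2 (20.2 ± 34.2) and Grm4 (12.4 ± 7.69) among the metabotropic receptors that inhibit adenylyl cyclase, the theta subunit Gabrq (5.89 ± 7.35), the delta receptor Grid1 (4.78 ± 5.11) and the rho subunit Gabrr2 (3.04 ± 3.60). The SD of Grm2 exceeded its mean because pool 4 alone was at 396 scaled CPM, where the other 5 pools lay between 0.214 and 29.9.

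The first comparison asked which receptor subunits distinguish ipRGCs from other ganglion cells shortly after birth. At P5, 11 of the 43 tested receptor genes passed the threshold (limma, adjusted p below 0.05 and a change above 1 on the log2 scale), 4 higher and 7 lower in ipRGCs. The 4 higher are 9.30% of the receptor genes, against 1.93% of all 13677 genes, and the 7 lower are 16.3%, against 2.27%. The median log2 change was -0.08 over the receptor genes and 0.00 over all genes. Higher in ipRGCs were the NMDA subunits Grin3a and Grin2c, the kainate subunit Grik4 and the GABA-A subunit Gabra3. Among the lower were Gria3, Grik3, the metabotropic receptors Grm5 and Grm7, and the GABA-A subunits Gabra2 and Gabrg1. Of 11 Müller glia markers 1 (Vim) was called higher in ipRGCs, and of 16 ganglion cell markers 3 (Pou4f1, Pou4f3 and Rbpms2) were called lower. The summed level of the Müller markers was 428 to 651 CPM in ipRGC and 412 to 456 CPM in cRGC pools, and that of the ganglion cell markers 6800 to 10326 and 9347 to 11234 CPM. Of 2 tested astrocyte markers 1 (Gfap) and of 5 tested amacrine markers 1 (Tfap2b) were called lower in ipRGCs. Astrocyte markers summed to 0.735 to 4.34 CPM in ipRGC and 10.4 to 44.0 CPM in cRGC pools. Amacrine markers summed to 31.0 to 59.5 and 41.1 to 80.0 CPM, and vascular markers, none called, to 11.4 to 13.8 and 7.25 to 302 CPM. The part of all these markers in the changes was not tested.

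**Figure D1:**
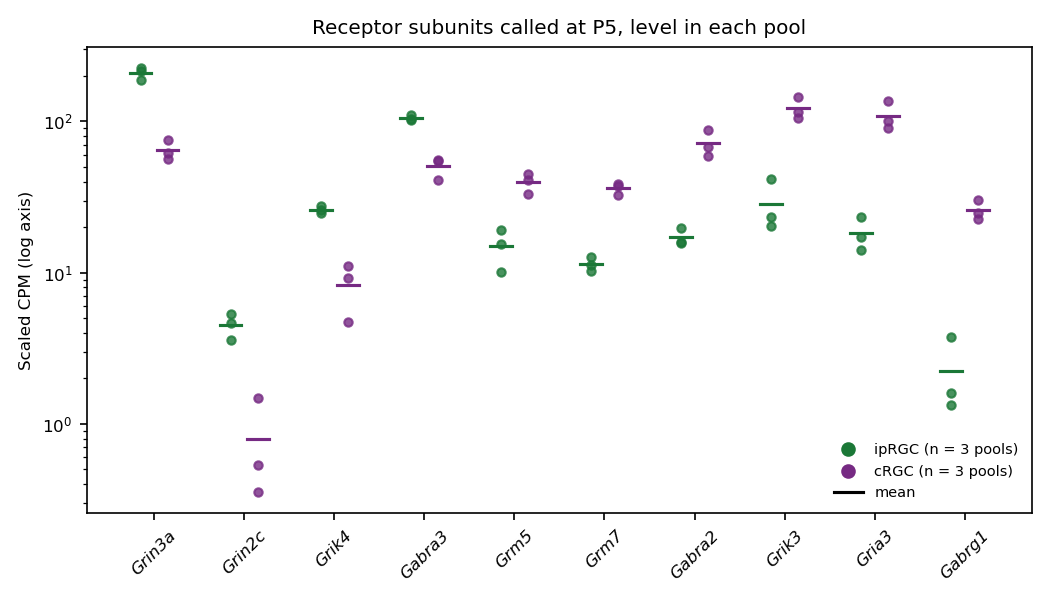
Level of 10 of the receptor genes called at P5, in scaled CPM on a log axis, for each of 3 ipRGC (green) and 3 cRGC (purple) pools, with a line at each mean. Levels in ipRGCs run from Grin3a at 187 to 225 CPM down to Gabrg1 at 1.33 to 3.77 CPM. The genes were picked by the call, so the lack of overlap between ipRGC and cRGC ranges adds no support. Ranges also did not overlap for some uncalled genes, Gria2 and Gabrb2 among them.

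Grin3a encodes a glycine-binding NMDA subunit known for lowering calcium permeability and magnesium block. It lies on chromosome 4 (mm9, 49674483 to 49858616, minus strand). Its level was 217, 187 and 225 CPM in the P5 ipRGC pools and 75.5, 61.6 and 56.6 CPM in the cRGC pools. Every ipRGC pool was above every cRGC pool. The means differed 3.24-fold, and the log2 change was 1.69 ± 0.22 (SE; limma, adjusted p = 1.16e-04). It stayed called with each of 6 libraries left out and under 8 other alternatives, with log2 changes of 1.60 to 1.80.

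Grin2c, a GRIN2 subunit best known from the cerebellum, was low everywhere. It was at 5.32, 4.65 and 3.56 CPM in ipRGC pools and 0.354, 1.49 and 0.534 CPM in cRGC pools. The ranges did not overlap and the log2 change was 1.66 ± 0.45 (limma, adjusted p = 0.0491). Of its alternatives, leaving out any of 5 of the 6 libraries (all but cRGC pool 2) ended the call (adjusted p 0.0916 to 0.213), as did a pseudocount of 0.5 (0.0568), no TMM scaling (0.0637) and edgeR's quasi-likelihood test (0.120). The other NMDA subunits were not called. Grin1 was at 91.2 to 166 CPM in ipRGCs and 78.8 to 153 CPM in cRGCs, and Grin2b, the Grin2 subunit that prevails early in development, at 82.3 to 132 and 107 to 200 CPM.

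Among the AMPA subunits Gria3 stood apart. This gene on chromosome X (38754031 to 39031778, plus strand) was at 17.1, 23.2 and 14.1 CPM in ipRGC pools and 136, 101 and 90.7 CPM in cRGC pools. All ipRGC pools were far below all cRGC pools, with means 6.00-fold apart and a log2 change of -2.53 ± 0.27 (limma, adjusted p = 2.51e-05). Gria3 supplied 1.59% ± 0.47 of the AMPA reads per kb in ipRGCs and 8.20% ± 1.19 in cRGCs (SD, n = 3 pools each). Gria2, which makes AMPA receptors impermeable to calcium, was not called, at 268 to 339 CPM in ipRGCs and 423 to 478 CPM in cRGCs (log2 change -0.57 ± 0.20, adjusted p = 0.156). Gria4 was at 273 to 401 and 231 to 306 CPM, and Gria1 at 103 to 117 and 74.9 to 120 CPM.

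The kainate class split. Grik3 was at 23.3, 41.4 and 20.2 CPM in ipRGC pools and 115, 145 and 106 CPM in cRGC pools, 4.31-fold lower in ipRGCs with no overlap (log2 change -2.12 ± 0.28, limma adjusted p = 1.76e-04). Grik4, a high-affinity subunit that forms channels only with other kainate subunits, went the other way, at 27.6, 24.7 and 25.8 CPM in ipRGC pools and 10.98, 4.69 and 9.18 CPM in cRGC pools (log2 change 1.61 ± 0.36, adjusted p = 0.0150). Without ipRGC pool 1 or cRGC pool 2 the adjusted p of Grik4 was 0.0864 and 0.0538. Grik1, Grik2 and Grik5 were not called, with Grik2 at 29.4 to 48.1 CPM in ipRGCs and 24.6 to 28.3 CPM in cRGCs.

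Of 7 tested metabotropic receptor genes 3 were called lower in P5 ipRGCs and none higher. Grm5, a group I receptor that couples to phospholipase C, was at 15.5, 10.1 and 19.3 CPM in ipRGC pools and 40.9, 32.9 and 44.8 CPM in cRGC pools (log2 change -1.38 ± 0.32, limma adjusted p = 0.0161). In group III, Grm7, a presynaptic receptor of low glutamate affinity, was at 11.2, 12.6 and 10.3 CPM in ipRGC pools and 38.4, 37.4 and 32.6 CPM in cRGC pools (log2 change -1.59 ± 0.30, adjusted p = 0.00395). For neither Grm5 nor Grm7 did ipRGC and cRGC pools overlap. The call of Grm5 was lost without ipRGC pools 1 (0.0505) or 2 (0.0692) or cRGC pools 1 (0.0805) or 3 (0.0535). The group II receptors Grm2 and Grm3 had log2 changes of 0.36 and 0.15 and were not called, and Grm3 was the most abundant metabotropic receptor per kb at P5, at 22.1 in ipRGCs and 21.2 in cRGCs.

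Among the GABA-A subunits the alpha class also split. Gabra2 was at 16.0, 15.7 and 19.8 CPM in ipRGC pools and 87.3, 59.4 and 68.0 CPM in cRGC pools (log2 change -1.99 ± 0.27, limma adjusted p = 2.29e-04). Gabra3 was at 102, 110 and 103 CPM in ipRGC pools and 54.9, 40.7 and 55.5 CPM in cRGC pools (log2 change 1.05 ± 0.23, adjusted p = 0.0110). Alpha subunits set the kinetics and the benzodiazepine pharmacology of the receptor, and of the GABA-A reads per kb at P5, Gabra3 took 12.4% ± 1.90 in ipRGCs and 4.97% ± 0.57 in cRGCs, while Gabra2 took 3.30% ± 0.24 and 11.5% ± 1.23 (rho subunits not counted). The call of Gabra3 rested on a change close to the threshold of 1 and was lost with no TMM scaling (log2 change 0.96) and without ipRGC pool 1 (adjusted p = 0.0537) or cRGC pool 2 (0.0540).

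Gabrg1 showed the largest change among the receptor genes at P5. It was at 1.60, 1.33 and 3.77 CPM in ipRGC pools and 24.8, 22.8 and 30.4 CPM in cRGC pools, means 11.6-fold apart. The log2 change was -3.13 ± 0.41 (limma, adjusted p = 1.65e-04), a scale that understates low levels because 1 CPM is added before the logarithm. Gabrb2 was lower in every ipRGC pool (116 to 125 CPM against 173 to 247 CPM) with an adjusted p of 0.0295 but a log2 change of -0.85, short of the threshold.

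GABA-B and glycine receptor genes did not pass the test at P5. Gabbr1 was at 404 to 419 CPM in ipRGCs and 360 to 401 CPM in cRGCs, and Gabbr2 at 653 to 800 and 393 to 710 CPM. Glra2, the alpha subunit of early development, was at 52.6 to 74.0 CPM in ipRGCs and 62.7 to 72.1 CPM in cRGCs, and Glrb at 51.9 to 97.6 and 57.2 to 65.7 CPM. The 32 uncalled receptor genes had log2 changes from -1.43 to 1.70.

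Many GABA-A genes lie in clusters, and at P5 the members of the clusters on chromosomes 5 and X each lay on the same side of 0. On chromosome 5 (mm9, 71142286 to 72529628) the 4 neighbours Gabrg1, Gabra2, Gabra4 and Gabrb1 had log2 changes of -3.13, -1.99, -1.43 and -1.33, of which the first and second were called. With the replicate block Gabrb1 also passed (adjusted p = 0.0492). On chromosome X (69501338 to 70087941) the 3 neighbours Gabre, Gabra3 and Gabrq had log2 changes of 1.28, 1.05 and 1.70, of which only Gabra3 was called. Grouping by cluster was chosen after the values had been seen and was not tested. In adults the log2 changes of Gabrg1, Gabra2, Gabra4 and Gabrb1 were 0.34, -0.83, -0.15 and 1.15 in the Opn4-GFP line and 0.63, -0.58, -0.84 and 0.00 in the Opn4-Cre/GFP line, none of them called.

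**Figure D2:**
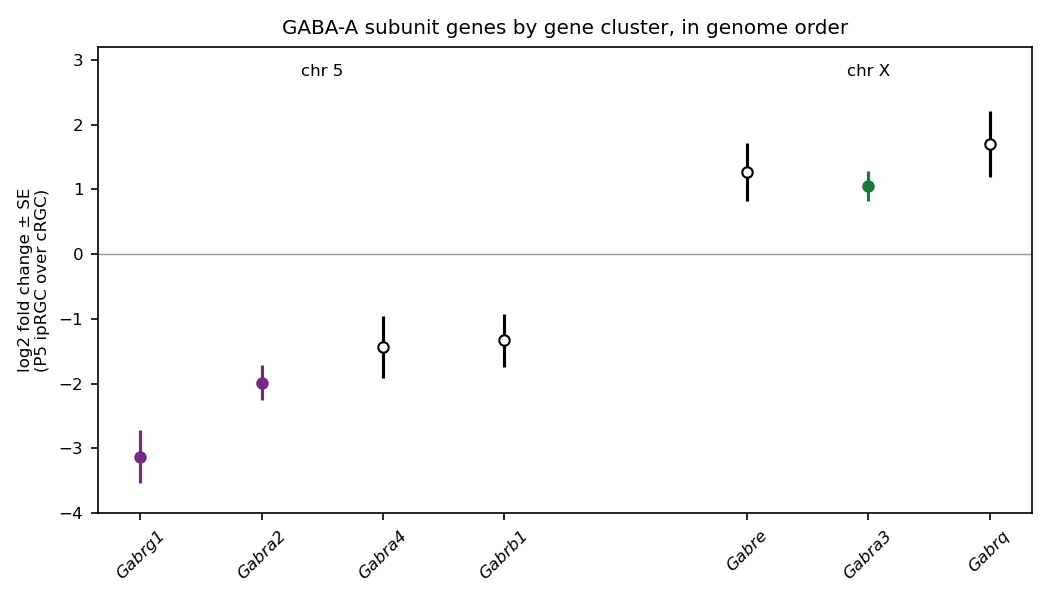
log2 fold change ± SE at P5 (ipRGC over cRGC) of GABA-A subunit genes, in genome order within the clusters on chromosomes 5 and X. Filled points were called. The 4 genes on chromosome 5 lie between -3.13 and -1.33 and the 3 on chromosome X between 1.05 and 1.70.

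The promoters of the 3 called genes of these clusters are shown because their neighbours lay on the same side of 0. Each run is the 250 bases before the transcription start (RefSeq, GRCm38.p6, 5′ to 3′ on the gene's own strand), with the homeodomain core motif TAATTA in capitals. They are Gabrg1 at chr5:70842618-70842867 and Gabra2 at chr5:71095850-71096099, both lower in P5 ipRGCs, and Gabra3 (the first of its start sites) at chrX:72656920-72657169, higher in P5 ipRGCs, all on the minus strand.
Gabrg1: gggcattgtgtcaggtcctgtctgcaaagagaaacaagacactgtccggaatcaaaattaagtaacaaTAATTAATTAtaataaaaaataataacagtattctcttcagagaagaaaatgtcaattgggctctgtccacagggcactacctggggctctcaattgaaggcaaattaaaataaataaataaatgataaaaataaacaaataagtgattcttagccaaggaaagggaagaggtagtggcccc
Gabra2: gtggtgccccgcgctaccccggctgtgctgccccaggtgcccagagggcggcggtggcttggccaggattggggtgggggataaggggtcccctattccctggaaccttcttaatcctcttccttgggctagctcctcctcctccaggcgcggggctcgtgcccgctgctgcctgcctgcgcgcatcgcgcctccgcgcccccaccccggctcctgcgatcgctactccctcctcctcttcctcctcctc
Gabra3: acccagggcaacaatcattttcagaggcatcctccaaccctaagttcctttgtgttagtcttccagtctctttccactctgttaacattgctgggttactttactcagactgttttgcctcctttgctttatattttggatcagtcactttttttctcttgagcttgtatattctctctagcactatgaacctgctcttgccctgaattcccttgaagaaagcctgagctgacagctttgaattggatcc

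The 3 windows have little in common in composition. G and C make up 35.6% of the Gabrg1 window, 70.0% of that of Gabra2 and 42.4% of that of Gabra3 (median of all promoters 52.4%). TAATTA, a palindrome and so the same on both strands, occurs in the Gabrg1 window as 2 overlapping copies and in neither of the others. It is found in 4.84% of 32851 promoter windows of this length and in 1 of 39 windows (2.56%) of the 32 receptor genes that matched the table. The T-box core AGGTGT, searched on both strands, is in 11.8% of all windows and 12.8% of those of receptor genes (5 windows, of Gabra5, Gabrb1, Gabrb2, Gabrr2 and Grm8). It is in none of the 3 windows shown. Grin3a and Gria3 have no entry in the table. Both motifs were chosen after the levels had been seen, and a match is only a description.

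In adult Opn4-GFP mice 1 of 44 receptor genes was called, Grin3a, higher in ipRGCs (2.27% of the receptor genes, against 1.76% of 11587 genes). None was called lower, against 3.39% of all genes. Grin3a's lowest, median and highest levels were 57.1, 111 and 185 CPM in the 6 ipRGC pools and 0.146, 12.5 and 41.0 CPM in the 6 cRGC pools. The groups did not overlap, and the means differed 6.95-fold (log2 change 3.40 ± 0.83, limma adjusted p = 0.0124). The call was lost with edgeR's quasi-likelihood test (adjusted p = 0.140) and without the pools sequenced in 1 run (pools 5 and 6, adjusted p = 0.311), and it held without the pools that have over 1000 genes at 0 (log2 change 3.28, adjusted p = 0.00368). Without the latter pools Gabbr1 was also called, higher in ipRGCs (log2 change 1.51, adjusted p = 0.0250). In that fit 2 of 44 receptor genes and 267 of all 11587 genes were called higher.

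In adult Opn4-Cre/GFP mice 2 of 45 receptor genes were called, both higher in ipRGCs (4.44%, against 1.97% of 13357 genes), and none lower (3.47% of all genes). Gabbr2 was at 1001, 658, 579 and 726 CPM in ipRGC pools and 104, 325, 160 and 325 CPM in cRGC pools. The groups did not overlap (3.24-fold, log2 change 1.82 ± 0.41, limma adjusted p = 0.0159). The call was lost without ipRGC pool 1 (0.0703), without cRGC pool 3 (0.0597) and with edgeR's quasi-likelihood test (0.0549, and 0.114 with the replicate block). Its partner Gabbr1 was at 339 to 383 CPM in ipRGCs and 147 to 363 CPM in cRGCs and was not called. In adult Opn4-GFP mice Gabbr2 was at 310 to 1082 and 95.8 to 1108 CPM, not called.

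Grin3a was again higher, at 72.2, 96.6, 145 and 98.5 CPM in Opn4-Cre/GFP ipRGC pools and 8.33, 66.7, 23.1 and 7.998 CPM in cRGC pools. Every ipRGC pool exceeded every cRGC pool (3.89-fold, log2 change 2.39 ± 0.65, limma adjusted p = 0.0446). The call was lost when any library but that of cRGC pool 2 was left out (adjusted p 0.0803 to 0.161), with the replicate block (0.0539), with edgeR's quasi-likelihood test (0.204) and without pool 4 (0.121). Gria3 was lower in 4 of 4 pools, at 30.03, 95.4, 81.4 and 2.35 CPM in ipRGCs and 106, 198, 152 and 151 CPM in cRGCs, with a log2 change of -2.31 ± 0.83 that did not pass (adjusted p = 0.140). Grik4 was higher in 4 of 4 pools, at 22.0 to 26.7 CPM in ipRGCs and 0 to 15.1 CPM in cRGCs (adjusted p = 0.193). Without pool 4, Gabrq was called higher (log2 change 2.28, adjusted p = 0.0479). In that fit 2 of 45 receptor genes and 218 of all 13357 genes were called higher.

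**Figure D3:**
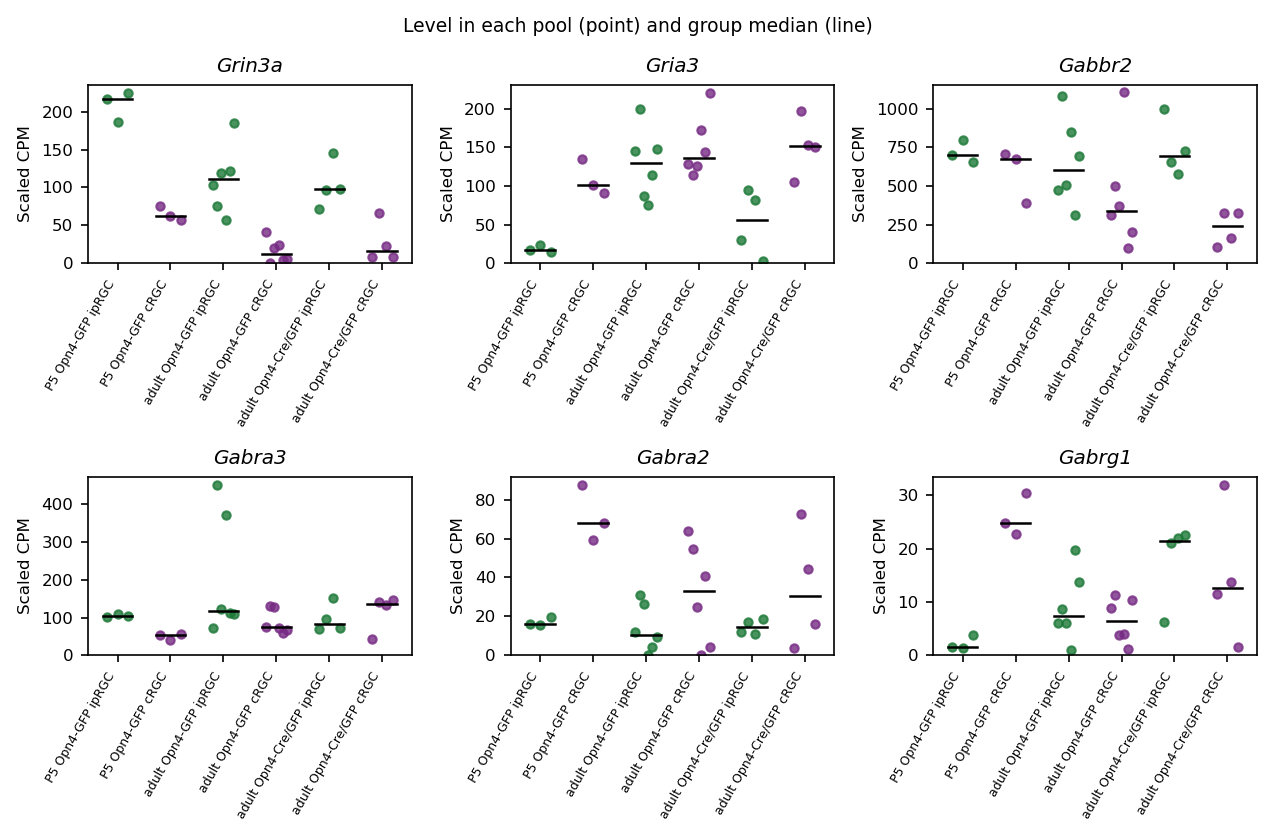
Scaled CPM of Grin3a, Gria3, Gabbr2, Gabra3, Gabra2 and Gabrg1 in each pool (points, green for ipRGC and purple for cRGC) and group median (line) over the 6 groups. Grin3a is higher in ipRGCs at both ages and in both lines without overlap, while Gria3 is low in P5 ipRGCs (14.1 to 23.2 CPM) and reaches 75.2 to 200 CPM in adult Opn4-GFP ipRGCs.

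The adult groups also differed in markers of other cells, and the values belong beside these results. In Opn4-GFP mice all 12 tested Müller glia markers were called lower in ipRGCs, and their summed level was 663 to 1662 CPM in ipRGC and 10475 to 25920 CPM in cRGC pools. In Opn4-Cre/GFP mice it was 14 of 14, with sums of 870 to 1611 and 9940 to 41882 CPM. Ganglion cell markers went the other way, with 9 of 15 and 11 of 15 higher in ipRGCs and sums of 4966 to 6863 against 590 to 2479 CPM, and of 4694 to 7774 against 847 to 2668 CPM. Of 8 tested amacrine markers 2 (Tfap2b and Slc32a1) were called lower in Opn4-GFP ipRGCs and 0 in Opn4-Cre/GFP ipRGCs. Their median log2 changes were -0.93 and -1.01, against 0.06 and 0.03 over all genes. The 8 listed amacrine markers summed to 568 to 1741 CPM in ipRGC and 1000 to 3631 CPM in cRGC pools of Opn4-GFP mice, and to 443 to 1031 and 201 to 2392 CPM in the Opn4-Cre/GFP line, ranges that overlap. Vascular markers summed to 0.726 to 52.1 CPM in ipRGC and 554 to 1647 CPM in cRGC pools of the former line and 13.4 to 37.8 and 659 to 3115 CPM of the latter. Rod markers summed to 1.96 to 104 and 113 to 1303 CPM, and to 19.9 to 331 and 208 to 963 CPM.  Fewer cells of a type and less RNA per cell cannot be told apart in bulk pools, and the part of these markers in the adult receptor values was not tested.

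Adult and P5 pools of the Opn4-GFP line were compared on reads scaled together over 11236 genes, of which 40 were receptor genes. These comparisons use the same libraries as those of ipRGCs with cRGCs and are not independent of them. In ipRGCs 1 receptor gene was called higher in adults, Gria3 (2.50% of the receptor genes, against 0.837% of all genes), and none lower (0.303% of all genes). On this joint scale Gria3 was at 16.6, 22.0 and 13.4 CPM in P5 ipRGC pools, and at 75.9, 134 and 205 CPM (lowest, median, highest) in adult ipRGC pools, with no overlap. The log2 change was 2.85 ± 0.47 (limma, adjusted p = 0.00136), and it stayed called with each of 18 libraries left out and under 7 other alternatives (adjusted p 9.89e-05 to 0.0270). In cRGCs the same gene was at 126, 95.8 and 88.6 CPM at P5 and 118 to 229 CPM in adults, not called. The difference between these changes, tested as an interaction, was 2.29 ± 0.67 with an adjusted p of 0.156, and 0.0229 when the pools with over 1000 genes at 0 were left out. All 5 tested amacrine markers were also called higher in adult than in P5 ipRGCs. Listed amacrine markers summed to 31.0 to 59.5 CPM in P5 ipRGCs (5 markers) and 568 to 1741 CPM in adult ones (8 markers). Of 9 tested Müller markers 1 (Dkk3) was called higher and 1 (Vim) lower. The part of these markers in the change of Gria3 was not tested.

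In cRGCs 1 receptor gene was called lower in adults (2.50%, against 2.88% of all genes), and none higher (3.32% of all genes). Between P5 and adult cRGC pools 8 of 9 tested Müller markers were called higher and 12 of 15 ganglion cell markers lower, whose part was not tested. All 5 tested amacrine markers were called higher in adults in both cell groups, and their part was not tested either. Age and collection cannot be told apart, and the joint scaling left the median of all genes at -0.24 in ipRGCs and -0.34 in cRGCs, against -0.03 and -0.42 over the receptor genes.

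Leaving out the pools with over 1000 genes at 0 made more of the age differences pass, among all genes as well as receptor genes. In ipRGCs 3 of 40 receptor genes were then called higher and 1 lower, against 242 and 175 of all 11236 genes. In cRGCs 2 of 40 were called higher and 7 lower, against 836 and 754 of all 11236 genes. In ipRGCs Grm8 (log2 change 2.04, adjusted p = 0.0414) was then called higher, in limma. In cRGCs Gabrb1 (log2 change -3.80, adjusted p = 0.00924), Gabrg3 (-2.18, 7.35e-04), Gabbr1 (-1.52, 0.00335), Gabbr2 (-1.21, 0.0418), Grin2d (-2.16, 0.0431) and Grin3a (-2.12, 0.0124) were then called lower and Grik2 higher (1.89, 0.00609).

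The make-up of the NMDA class at the 2 ages is given as per-kb shares, as a description with no test. Grin2b took 27.7% ± 5.61 of the NMDA reads per kb in P5 ipRGCs and 14.7% ± 10.1 in adult Opn4-GFP ipRGCs, and 46.0% ± 3.91 and 18.3% ± 26.0 in cRGCs. Grin1 took 24.6% ± 4.65 and 57.5% ± 10.5 in ipRGCs, and 29.9% ± 3.89 and 58.5% ± 17.8 in cRGCs. Grin3a took 27.3% ± 5.99 in P5 and 13.6% ± 5.28 in adult ipRGCs, and 10.1% ± 1.77 and 5.24% ± 5.84 in cRGCs. The ratio of Grin2a to Grin2b per kb, which rises as NMDA receptors mature in many neurons, had a median of 0.0688 in P5 ipRGCs (0.0216 to 0.0936) and 0.234 in adult Opn4-GFP ipRGCs (0.0339 to 2.96), ranges that overlap. In Opn4-Cre/GFP ipRGCs it was 0.867 (0.528 to 164, where pool 4 had a Grin2b level of 0.307 CPM).

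**Figure D4:**
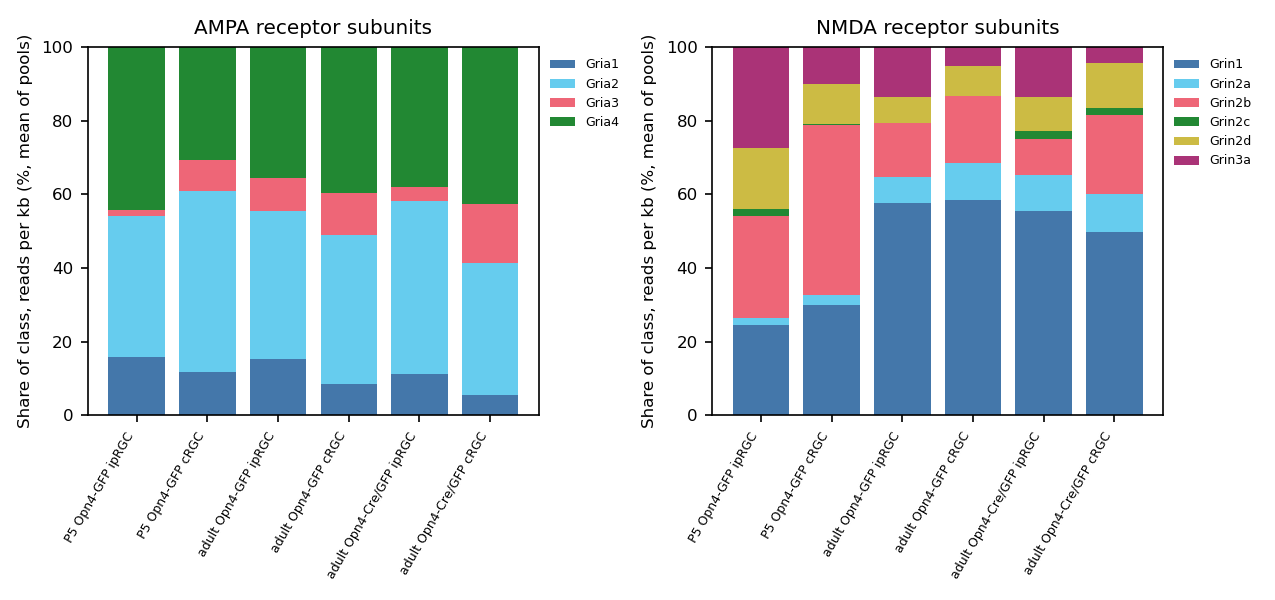
Mean share of each subunit in the summed reads per kb of the AMPA class (left) and the NMDA class (right), in percent, for the 6 groups. At P5, Gria3 makes up 1.59% of the AMPA class in ipRGCs against 8.20% in cRGCs, and Grin1 makes up 24.6% against 29.9% of the NMDA class.

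No receptor gene was called between reporter lines. Adult ipRGCs of the Opn4-Cre/GFP and the Opn4-GFP line were compared over 11441 genes, of which 43 were receptor genes, and 0 genes of any kind were called in either direction (0% higher and 0% lower). Without adjustment 2 of the 43 receptor genes had a limma p below 0.05, Gria3 among them, against 257 of all 11441 genes. With edgeR's quasi-likelihood test 0 were called as well. Gria3 was at 79.0 to 211 CPM in Opn4-GFP and 2.40 to 84.3 CPM in Opn4-Cre/GFP ipRGC pools on the joint scale, and its log2 change of -2.23 ± 0.63 had an adjusted p of 0.99997. The interaction of cell group with line likewise called 0 genes (0% higher and 0% lower), and 0 by edgeR. In it 3 of 43 receptor genes had an unadjusted limma p below 0.05, against 272 of all 11441 genes. The interaction with age called 0.125% of all genes higher and 0.667% lower, and 0 of 40 receptor genes. Of these 40, 3 (Gria3 and Gabrg1 among them) had an unadjusted limma p below 0.05, against 684 of all 11236 genes. The smallest adjusted p among the receptor genes was 0.156. Without the pools that have over 1000 genes at 0, Gabrg1 was called in this interaction (4.09 ± 1.06, adjusted p = 0.0425), as was Gria3. In that fit 2 of 40 receptor genes were called higher and 1 lower, against 89 and 202 of all 11236 genes.

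Of the 40 receptor genes listed in all sets, Grin3a alone was called by limma in all 3 comparisons of ipRGCs with cRGCs. The matching count over all genes is not given here. Both adult calls of Grin3a were lost with edgeR's quasi-likelihood test. That in Opn4-Cre/GFP mice was also lost in 7 of 8 fits with a library left out. ipRGC pools were above their cRGC partners of the same number for 11 of 43 genes at P5 in every pool, for 4 of 44 in adult Opn4-GFP and for 9 of 45 in adult Opn4-Cre/GFP mice, and below in every pool for 15, 1 and 3 genes. As shares of the receptor genes these are 25.6%, 9.09% and 20% above and 34.9%, 2.27% and 6.67% below. Over all listed genes the shares were 19.5%, 5.43% and 13.8% above and 18.4%, 6.17% and 14.0% below. Equal numbers are taken to mark cells split from the same pool.

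A further 8 genes were listed in only some sets. The alpha subunit Gabra5 and the epsilon subunit Gabre were listed only at P5, Gabra5 at 12.7 to 16.0 CPM in ipRGCs and 21.0 to 33.1 CPM in cRGCs and Gabre at 1.60 to 2.20 and 0 to 0.534 CPM, neither called. Gabrd, a subunit of extrasynaptic receptors, was listed only in the adult Opn4-Cre/GFP line, at 0.667 to 13.8 CPM in ipRGCs and 0.0291 to 30.4 CPM in cRGCs. Grm6, the receptor of ON bipolar cells, was listed in adults only, at 0 to 11.8 CPM in ipRGCs and 0 to 29.98 CPM in cRGCs of the Opn4-GFP line. The rho subunit Gabrr1 was listed only in adult Opn4-GFP, at 0 to 5.99 CPM in ipRGCs, and in cRGCs it ran from 0 to 485 CPM with a median of 5.17 CPM. Gabrr2 and Glra4 were listed in both adult sets, at 0 to 23.7 and 0.196 to 35.6 CPM in Opn4-GFP ipRGCs. Grin2c was listed at P5 and in the Opn4-Cre/GFP line, where it was at 0.563 to 17.1 CPM in ipRGCs and 0 to 8.72 CPM in cRGCs. None of these was called in adults.

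Genes that act with these receptors were counted from 2 further lists, of 37 partners at glutamate synapses and 15 at inhibitory synapses. At P5, 3 of 36 tested glutamate partners were higher in ipRGCs and 3 lower, and 1 of 14 inhibitory partners higher and 1 lower (all genes, 1.93% higher and 2.27% lower). The AMPA receptor auxiliary subunits Shisa6, Cacng3 and Gsg1l were higher (log2 changes 2.13 ± 0.23, 1.72 ± 0.27 and 2.13 ± 0.37, limma adjusted p 2.30e-05, 8.78e-04 and 0.00218). The secreted synaptic proteins Nptx2, Cbln2 and Cbln4 were lower (-2.08, -1.64 and -2.03). Cbln2 and Cbln4 are cerebellins. Among inhibitory partners Mdga1, which restrains neuroligin 2, was higher (2.69 ± 0.42, adjusted p = 8.53e-04), and Kctd8, an auxiliary subunit of GABA-B receptors, was lower (-1.12 ± 0.26, adjusted p = 0.0154). The medians were -0.24 and 0.23 over the lists, against 0.00 over all genes.

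In adult Opn4-GFP mice 2 of 34 glutamate partners were higher (Cacng5 2.93, Shank3 3.19) and 1 lower (Shisa9 -5.51), with 0 of 14 inhibitory partners called (all genes, 1.76% higher and 3.39% lower). In adult Opn4-Cre/GFP mice 3 of 34 were higher (Nptx1 2.08, Cacng5 2.26, Shisa6 3.05) and 2 lower (Shisa9 -4.36, Cacng4 -2.04), and the inhibitory partner Gabarapl1, which binds GABA-A receptors, was higher (1.85), where all genes gave 1.97% higher and 3.47% lower. Nptx1 (2.56) was higher in adult than in P5 ipRGCs. In cRGCs Dlg1 (2.37), Mdga1 (4.19) and the chloride exporter Slc12a5 (1.81) were higher in adults and Shank3 (-4.60), Cnih2 (-3.55) and Slitrk3 (-4.54) lower, all by limma with adjusted p below the threshold. Slc12a5, which lowers chloride and so makes GABA inhibitory, had a log2 change of 1.39 in ipRGCs that did not pass (adjusted p = 0.251). Shisa9 was at 0 to 7.83 CPM in adult Opn4-GFP ipRGC pools and 16.8 to 220 CPM in cRGC pools, which do not overlap.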

How the data were processed

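RNA of 26 sorted pools was read as 50 bp single-end reads. The authors removed adapters, filtered reads by quality, mapped them against mm9 (TopHat2), obtained gene counts from htseq-count and used edgeR for scaling, with versions not given in the sources used here. Signal values deposited by the authors are CPM of the TMM-scaled library size, per comparison, and leave out genes that most libraries of a comparison held under 1 CPM. They divide back into whole reads (99.9983% of values within 0.01). Columns of the authors' own comparisons were not used, and 2 library entries in the authors' table of quality reads match no sample here and were not used. Counting is not stated to use strand, and 13 of the 48 genes have exons that overlap another gene model, so their counts are less certain.

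Within a set, limma 3.58.1 (trend) tested log2(CPM + 1), with Benjamini-Hochberg adjustment over all listed genes. Across sets, recovered reads had 1 joint TMM scaling. Calls need an adjusted p below 0.05 and an absolute log2 change above 1. Every adjusted p is from limma unless edgeR 4.0.16 or DESeq2 1.42.0 is named (R 4.3.3). Levels per kb are reads per 1000000 listed reads over the exon length of the mm9 annotation. Alternatives were pseudocounts of 0.5 and 2, a mean CPM of at least 5, no TMM, a replicate block, edgeR, DESeq2, each library left out, and pools sequenced in 1 run left out. Leaving out pools with over 1000 listed genes at 0 was added after seeing the data. The fits were tested on simulated data. Plots used Python 3.11.15 and matplotlib 3.10.9.

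The study describes ipRGC and cRGC pools of one number as split from one pool. That the label numbers mark these pairs is an assumption. Deviations of same-numbered libraries correlated at a mean r of 0.212 at P5, 0.0582 for adults of the Opn4-GFP line and 0.123 for the Cre line. For differently numbered libraries of the other cell group the mean r was -0.105, -0.00930 and -0.0368 in the same order. Correlation was highest with the library of the same number for 6 of 6, 7 of 12 and 8 of 8 libraries. Named genes are those called in any comparison, the highest per kb of each class in adult Opn4-GFP ipRGCs, Grin3a, those listed in only some sets, and called partners, at most 6 per comparison, except some that are counted but not reported here by name or value. The members and lists were chosen with earlier results of these data known. p-values measure the spread between pools.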

Additional observations from a re-analysis of the deposited data

Results flagged for a closer look

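A library stood far from the rest of its group by Dixon's ratio in 40 of 178 sets of adult values of a receptor gene (22.5%). The cut flags about 1 in 20 sets of values that follow a normal distribution, which was not checked for scaled CPM. Most flags were at the highest value, and the sets share libraries. Whether 22.5% exceeds chance was therefore not tested. Of the 40, 30 fell in the 6 libraries with over 1000 listed genes at 0, out of 20 adult libraries. For 36 of them, the rest of this paragraph gives the scaled CPM of the library that stood apart, with the nearest other library of its group in parentheses. Adult Opn4-GFP ipRGC pool 1 was the highest for Grm7 at 71.4 CPM (25.8). Adult Opn4-GFP ipRGC pool 2 was the highest for Grik1 at 12.9 CPM (3), Gabrr2 at 23.7 CPM (8.41) and Gabbr1 at 653 CPM (426). Adult Opn4-GFP ipRGC pool 3 was the highest for Grm6 at 11.8 CPM (2.71). Adult Opn4-GFP ipRGC pool 4 was the highest for Gria4 at 743 CPM (371), Grik5 at 660 CPM (203), Grin2a at 70.8 CPM (17.8), Grm2 at 396 CPM (29.9), Grm4 at 181 CPM (75.9), Gabrb2 at 225 CPM (108), Gabrg3 at 554 CPM (140) and Glrb at 390 CPM (115). Adult Opn4-GFP ipRGC pool 5 was the highest for Gabrb1 at 49 CPM (18.2). Adult Opn4-GFP cRGC pool 2 was the highest for Grin2d at 140 CPM (12.7), Grm4 at 169 CPM (46.4), Gabrr1 at 485 CPM (40.4) and Glra4 at 15 CPM (2.19). Adult Opn4-GFP cRGC pool 3 was the highest for Grm5 at 22.8 CPM (8.33), Gabra4 at 19 CPM (4.81) and Gabrq at 16.2 CPM (4.17). Adult Opn4-GFP cRGC pool 4 was the highest for Gria2 at 1320 CPM (585), Grik5 at 828 CPM (102), Grm7 at 193 CPM (48.3), Gabrb1 at 31.5 CPM (1.31), Gabrg3 at 319 CPM (50.9) and Glrb at 273 CPM (65.1). Adult Opn4-Cre/GFP ipRGC pool 1 was the lowest for Gabrg1 at 6.22 CPM (21.1). Adult Opn4-Cre/GFP ipRGC pool 4 was the highest for Gabrd at 13.8 CPM (2.12). Adult Opn4-Cre/GFP ipRGC pool 4 was the lowest for Gria1 at 12.9 CPM (106). Adult Opn4-Cre/GFP cRGC pool 1 was the lowest for Gabra3 at 43.2 CPM (133). Adult Opn4-Cre/GFP cRGC pool 3 was the highest for Grin2c at 8.72 CPM (0.444) and Gabrr2 at 19.1 CPM (4.15). Adult Opn4-Cre/GFP cRGC pool 4 was the highest for Grm5 at 120 CPM (8.79), Grm4 at 357 CPM (28.2) and Gabrq at 17.2 CPM (0.686).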

How the results depend on the processing

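Counts of called genes depended on the processing more in adults than at P5. Leaving out the pools with over 1000 genes at 0 moved the count from 597 to 798 in adult Opn4-GFP mice. In adult Opn4-Cre/GFP mice it moved from 727 to 733. How far such libraries limit the adult comparisons was not tested. Direction was followed for 62 results, those of receptor genes called or with an unadjusted limma p below 0.05 in a comparison. None changed direction, which says little because they were picked for lying away from 0. Of 1259 values over these results, 1182 kept their side of the threshold, 38 gained a call and 39 lost it. Uncalled genes that stayed uncalled count among those that kept their side. At P5, no TMM scaling left 2 receptor genes called higher in place of 4. In adult Opn4-GFP mice 597 genes were called, 304 with edgeR's quasi-likelihood test, 321 with it and the replicate block, and 201 without pools sequenced in 1 run. Receptor genes called higher there numbered 1, with 0 under each of these 3 settings and 2 without the pools that have over 1000 genes at 0 (sparse pools). Receptor genes called lower numbered 0, and 1 with a pseudocount of 2, a mean of at least 5 CPM, the replicate block or no sparse pools. In adult Opn4-Cre/GFP mice 727 genes were called, 430 with edgeR, 222 with edgeR and the block and 1156 with DESeq2, and receptor genes higher numbered 2, then 1 with the block, 0 with edgeR and 0 with edgeR and the block.

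Adult against P5 ipRGCs gave 128 genes, 84 with edgeR, 85 without pools of 1 run and 417 without sparse pools, which also gave 3 receptor genes higher in place of 1 and 1 lower in place of 0. In cRGCs 697 genes became 414 with edgeR and 1590 without sparse pools. Receptor genes lower numbered 1, then 4 with a pseudocount of 2, 2 with no TMM, 2 without pools of 1 run and 7 without sparse pools, and receptor genes higher 0, then 2 without sparse pools. The interaction with age gave 89 genes, 33 with edgeR, 28 without pools of 1 run and 291 without sparse pools, with 2 receptor genes higher and 1 lower in the last in place of 0.

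Leaving out each library in turn gave 422 to 598 genes at P5, with 1 to 4 receptor genes higher and 6 to 7 lower. It gave 454 to 713 genes in adult Opn4-GFP (1 higher, 0 to 1 lower), 419 to 892 in adult Opn4-Cre/GFP (0 to 3 higher), 34 to 207 for ipRGCs by age (1 higher), 361 to 834 for cRGCs by age (0 to 1 higher, 1 to 4 lower) and 27 to 126 for the interaction with age (0). The replicate block gave 329 genes higher and 397 lower at P5, and 8 receptor genes lower in place of 7. No paired analysis was possible for the comparisons of ages and lines because a pool has 1 age and 1 line. The block changed calls of receptor genes for 1 gene in each comparison of ipRGCs with cRGCs, among them Gabrb1 at P5 and Grin3a in adult Opn4-Cre/GFP mice.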
